A study of Mus musculus with 4 samples.

Results

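The complement genes C1qa, C1qb, C1qc, C3, Cfp, C3ar1 and C5ar1 were followed across the immune cell classes of the mouse liver. The genes were chosen by name, as 7 of the 32285 genes in both RNA count tables, and the regions of open chromatin were those within 10 kb of their start sites, 24 of 162879 regions called on either day. Complement is a cascade of proteins that tags microbes, dying cells and debris for uptake. C1qa, C1qb and C1qc encode the A, B and C chains of C1q, the recognition molecule of the classical pathway, which macrophages make in tissue. C3 is the component on which the pathways converge, and most of the C3 in blood comes from hepatocytes. Cfp encodes properdin, which stabilizes the convertase of the alternative pathway and comes mainly from myeloid cells. C3ar1 and C5ar1 encode the receptors of C3a and C5a, the small fragments released when C3 and C5 are cleaved, and both are carried by myeloid cells.

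The nuclei came from livers of C57BL/6J mice, with 1 library per day in which RNA and open chromatin were read from the same nuclei by 10x Multiome. D0 was steady state with no days on the diet. At D5 the chow had held DDC (3,5-diethoxycarbonyl-1,4-dihydrocollidine) at 0.1% for 5 days, a diet that damages bile ducts and models early cholestasis. The mice were males of 6 to 12 weeks of age per the study's methods, no engineered allele is named for them, and the number of mice in each library is not given in the sources used here. On both days the sort had kept living CD45+ CD64- CD11c+ cells, so the gate selected for dendritic cells and against macrophages with CD64 at the surface. Shares and levels of macrophages below are those of cells that passed this gate, not of the liver.

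The D0 library held 16260 called barcodes with a median of 1799 UMIs (unique RNA molecules counted), and the D5 library 27873 with a median of 2790. The called lists of the 2 days shared 591 barcode sequences. After filters and removal of likely doublets, 10982 nuclei at D0 and 19832 at D5 were clustered, and the classes were named from marker lists. The dendritic classes are cDC1 and cDC2 (the conventional dendritic cells), pDC (plasmacytoid dendritic cells, which make interferon) and Ccr7+ DC (mature, migrating cells). The label of the class that leads most of the results was checked against its markers. The 723 macrophage-like nuclei at D0 and 1112 at D5 carried Apoe at 1837 and 4151 CPM (counts-per-million UMIs of the class) and Adgre1 (F4/80) at 132 and 92.4 CPM. The Kupffer cell genes Clec4f (0.689 and 24.0 CPM), Marco (0 and 13.2 CPM) and Timd4 (1.38 and 1.85 CPM) were low there. Fcgr1, which encodes the CD64 that was sorted out, was at 44.8 CPM at D0 and 89.6 CPM at D5, with a UMI in 7.33% and 20.4% of these nuclei. The class also held the cDC2 marker list at a sum of 2304 CPM at D0 and 1870 CPM at D5. In cDC2-like nuclei that list summed to 5191 and 3737 CPM. All 11 of its genes were detected in the macrophage-like class, as were all those of the cDC1, preDC and pDC lists. The classical monocyte list of 7 genes stood at 1853 and 1586 CPM (772 and 1025 CPM in cDC2-like nuclei). The 15 macrophage genes of the class summed to 2710 and 5223 CPM. Of these, Marco was at 0 at D0 and Apoe made up most of the sum.

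With 1 library per day there is no replicate, and no test of a difference between days or classes was possible. The ranges given in parentheses are 95% intervals that cover counting error only, and they do not hold the spread between mice. "Rose" and "fell" below mean only that the interval of the log2 ratio of D5 over D0 did not include 0. Differences within the library of a day were likewise not replicated.

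To show the DNA in front of 1 gene of each role (C1q chain, central component, properdin and receptor), 150 bases directly before the RefSeq start site of C1qb, C3, Cfp and C3ar1 are printed 5′ to 3′, all on the minus strand of GRCm38.p6. They lie at chr4:136886201-136886350 for C1qb, chr17:57228137-57228286 for C3, chrX:20931556-20931705 for Cfp and chr6:122856158-122856307 for C3ar1. Capitals mark letters that match one of the motifs searched.
C1qb: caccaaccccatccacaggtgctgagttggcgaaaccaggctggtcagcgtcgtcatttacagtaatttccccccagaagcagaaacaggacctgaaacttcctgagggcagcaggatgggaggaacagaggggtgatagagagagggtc
C3: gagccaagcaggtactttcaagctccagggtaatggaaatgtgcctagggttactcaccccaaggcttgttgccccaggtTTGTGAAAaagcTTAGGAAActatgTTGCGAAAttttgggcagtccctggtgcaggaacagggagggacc
Cfp: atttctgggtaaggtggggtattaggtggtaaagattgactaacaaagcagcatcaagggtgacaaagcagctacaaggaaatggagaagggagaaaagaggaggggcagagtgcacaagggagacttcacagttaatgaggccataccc
C3ar1: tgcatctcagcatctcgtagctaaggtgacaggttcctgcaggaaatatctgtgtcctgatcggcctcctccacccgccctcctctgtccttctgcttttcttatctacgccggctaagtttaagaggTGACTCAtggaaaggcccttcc

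The letters of 6 motifs were searched on both strands of such windows for 6 of the 7 genes (C1qa was not in the promoter table): GAGGAAG for ETS factors, TGANTCA for AP-1, TTNCNNAA for C/EBP, TGCTGAC for MAF factors, GGGANTTTC for NF-kB and TATAAA for a TATA box. The C3 window held 3 matches to the C/EBP letters, at 70, 58 and 45 bases before the start site, and none to the NF-kB letters. The C1qc window held 1 C/EBP match and the C3ar1 window 1 AP-1 match, at 22 bases before the start site. The windows of C1qb, Cfp and C5ar1 held none of the 6. Of 27025 promoter windows of the same length, 22.8% held a C/EBP match, 4.27% an AP-1 match, 6.76% the ETS letters, 2.44% the MAF letters, 0.574% the NF-kB letters and 8.08% the TATA letters. The matches describe letters only.

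The C1q chains (C1qa, ENSMUSG00000036887; C1qb, ENSMUSG00000036905; C1qc, ENSMUSG00000036896) lie side by side on chromosome 4 and had their highest level in the macrophage-like nuclei on both days. At D0 these nuclei held C1qa at 402 CPM (370 to 436), C1qb at 484 CPM (449 to 521) and C1qc at 236 CPM (211 to 262). At D5 they held C1qa at 540 CPM (515 to 566), C1qb at 808 CPM (777 to 839) and C1qc at 335 CPM (315 to 355). No other compared class came above 50 CPM for any chain. Over all other named classes together, the macrophage-like level was 38.8-fold higher for C1qa at D0 and 55.7-fold at D5, 29.0-fold and 42.9-fold for C1qb, and 30.3-fold and 47.4-fold for C1qc. Of the 7 genes, 6 (all but Cfp) were at least 2-fold higher in the macrophage-like nuclei than in the other named classes on both days, where 5.85% of 11672 genes tested were at D0 and 4.82% of 12667 at D5. The 7 genes and the other complement genes were left out of the genes used to cluster nuclei and out of the marker lists, so the classes were not made from them. The genes were chosen with earlier results of these data known, so the count is a description. Macrophage-like nuclei made up 6.58% of nuclei on D0 with 72.9% of all C1qa UMIs, and 5.61% on D5 with 78.5% of them.

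**Figure D1:**
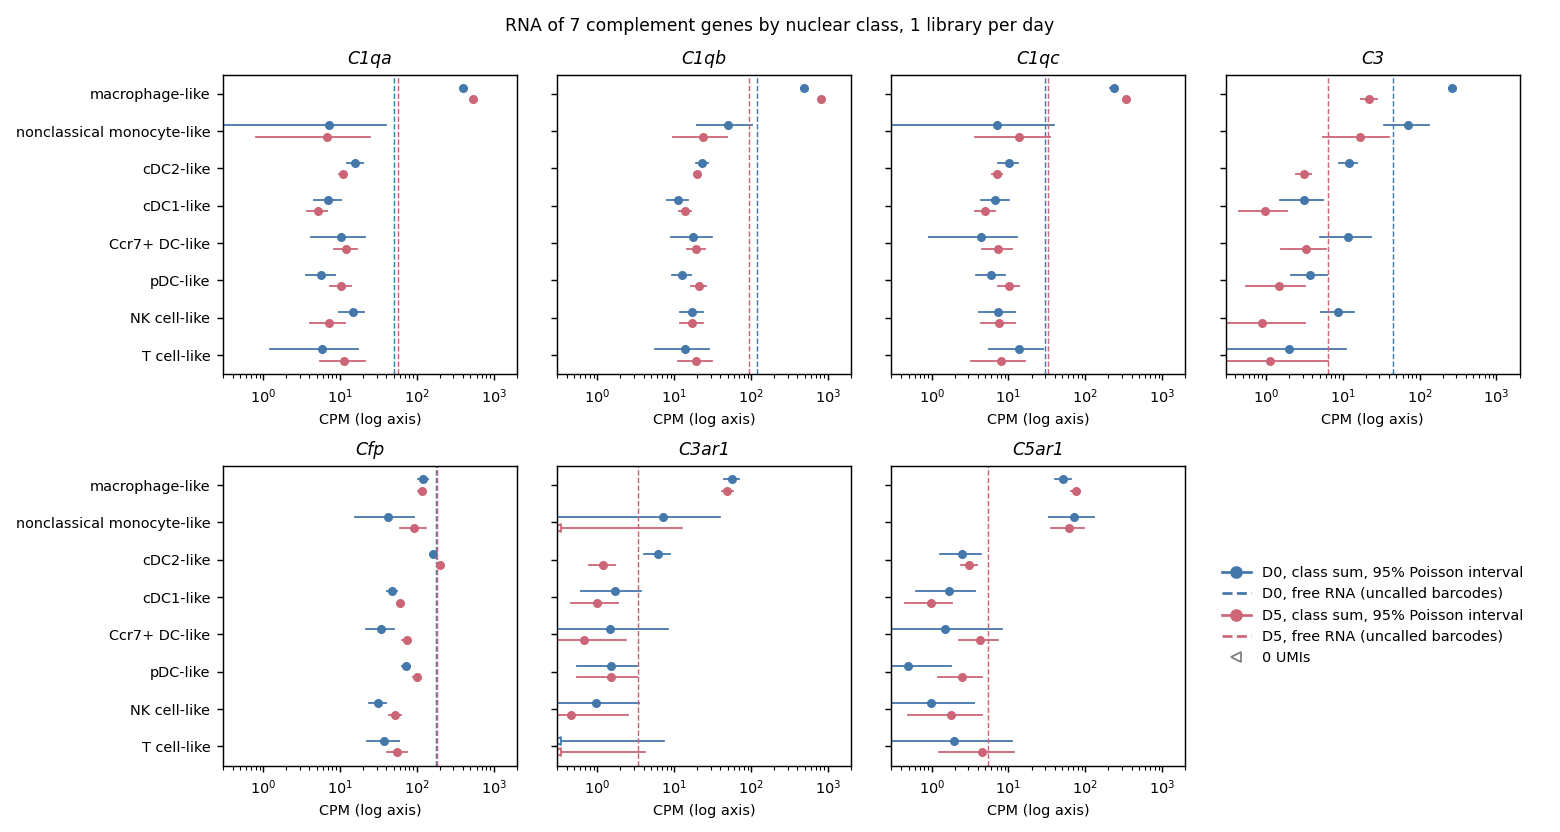
RNA level of each of the 7 genes (CPM, log axis) in 8 cell classes, in blue for D0 and red for D5, with 95% Poisson counting intervals; dashed lines give the level in barcodes with 10 to 50 UMIs, and an open left triangle marks 0 UMIs. The macrophage-like row lies to the right of all others for the 3 C1q genes on both days, C3 in that row moves from 267 CPM at D0 to 21.9 CPM at D5, and Cfp lies nearest to the free RNA lines in cDC2-like nuclei.

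The level in free RNA was measured for comparison. Barcodes of the joint tables that were not called as nuclei and held 10 to 50 UMIs carried C1qa at 50.9 CPM at D0 and 56.8 CPM at D5, C1qb at 120 and 93.8 CPM, and C1qc at 29.9 and 32.3 CPM. The macrophage-like level was 7.90 times (D0) and 9.50 times (D5) the free level for C1qa, 4.04 and 8.61 times for C1qb, and 7.87 and 10.4 times for C1qc. The free C1qb level at D0 rested on 40 UMIs and was 75.1 CPM in barcodes of 51 to 200 UMIs. The dendritic and lymphoid classes lay below the free level for all 3 chains, with C1qa in cDC2-like nuclei at 15.7 CPM at D0 and 10.99 CPM at D5. In NK cell-like nuclei, which are lymphocytes, C1qb stood at 17.0 CPM on both days, beside 23.0 CPM in cDC2-like nuclei at D0. Whether levels at or below free RNA came from free RNA or from the classes themselves was not tested. After thinning, 6 cDC2-like nuclei at D0 held both C1qa and C1qb where independent draws would give 0.543, and 15 at D5 where they would give 1.35. In pDC-like nuclei the numbers were 0 at D0 (0.258 from independent draws) and 1 at D5 (0.382). A C1q UMI of any chain was found in 41.4% of macrophage-like nuclei at D0 and 52.8% at D5 (33.9% and 42.4% after thinning every nucleus to 1000 UMIs), against 3.81% to 8.01% in the other compared classes (2.18% to 4.25% thinned).

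In macrophage-like nuclei the 3 chains stood in the same order on both days, with most UMIs for C1qb and fewest for C1qc. At D0 C1qa made up 35.9%, C1qb 43.2% and C1qc 21.0% of the C1q UMIs of macrophage-like nuclei, and at D5 32.1%, 48.0% and 19.9%. The C1qb share was higher at D5 with intervals that did not overlap (40.7% to 45.6% and 46.7% to 49.3%). Free RNA held them at 25.4%, 59.7% (47.0% to 71.5% for C1qb) and 14.9% at D0, from 67 UMIs, and at 31.1%, 51.3% and 17.6% at D5. All 3 chains were seen in 107 of the macrophage-like nuclei at D0 (14.8%) and in 274 at D5 (24.6%), which became 9.13% and 10.7% after thinning. After thinning, 112 of 723 nuclei at D0 held both C1qa and C1qb where independent draws would give 39.7; 80 held both C1qa and C1qc, 3.20 times the number expected of independent draws. C1qa and C3 were found together in 14 nuclei at D0 where independent draws would give 26.7, and at D5, with 25 C3 nuclei left after thinning, in 10 where they would give 6.14, so the direction differed between the days. These are descriptions of nuclei within 1 library.

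In the macrophage-like class as a whole, C1qa rose from D0 to D5 by a log2 ratio of 0.42 (0.29 to 0.56), C1qb by 0.74 (0.62 to 0.86) and C1qc by 0.51 (0.33 to 0.69). These ratios did not hold their direction for C1qa and C1qc when 1 subcluster found almost only at D0 was left out, as given further below, nor when the clusters were cut more finely, where C1qb also lost its call (0.042, -0.09 to 0.18). With at least 2000 UMIs per nucleus C1qa (0.0055, -0.18 to 0.20) and C1qc (0.036, -0.21 to 0.29) lost theirs, as they did with classes set from each nucleus alone (0.13, -0.09 to 0.35, and 0.19, -0.10 to 0.49). None of the 7 genes was 2-fold or more higher at D5 in these nuclei, where 0.910% of 8021 genes with at least 50 UMIs were (C1qb passed on the TMM scale, with a log2 ratio of 1.04), and 1 gene, C3, was 2-fold or more lower, where 5.21% were. Over those genes 73 were higher and 418 lower by 2-fold on the scale of total UMIs. Scaled by trimmed means (TMM) the split was 249 higher and 194 lower, since the log2 ratio of the TMM factors of D5 over D0 was -0.30, and every ratio of the class moves up by that size. The median log2 ratio of all genes in the class was -0.20 before that scaling.

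In the other classes the C1q ratios pointed in both directions at low levels. In cDC2-like nuclei C1qa fell by 0.52 (log2 interval -0.89 to -0.13) and C1qc went from 10.1 to 7.11 CPM (log2 -0.50, -0.97 to -0.01). In pDC-like nuclei C1qa went from 5.72 to 10.2 CPM (log2 0.83, 0.06 to 1.64), C1qb from 12.4 to 20.9 CPM (log2 0.75, 0.23 to 1.28) and C1qc from 5.97 to 10.2 CPM (log2 0.77, 0.01 to 1.56). All of these levels were under those of free RNA on the same day. On the TMM scale the cDC2-like ratios were -0.21 (-0.58 to 0.18) for C1qa and -0.20 (-0.66 to 0.30) for C1qc, so neither call held, and those of pDC-like nuclei did.

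C3 (ENSMUSG00000024164, chromosome 17) differed more between the days than the other 6 genes in macrophage-like nuclei. These nuclei held 388 C3 UMIs at D0, or 267 CPM (241 to 295), and 71 at D5, or 21.9 CPM (17.1 to 27.6). C3 thus fell by 3.61 on the log2 scale (-4.00 to -3.24), a level 12.2-fold lower at D5. Most C3 UMIs at D0 lay in 1 subcluster that was nearly absent at D5, described further below, and without it the ratio was -0.97 (-1.58 to -0.33). The share of these nuclei with a C3 UMI was 24.1% at D0 and 5.04% at D5, or 17.0% and 2.25% after thinning. C3 was at 71.2 CPM at D0 and 16.9 CPM at D5 in nonclassical monocyte-like nuclei (log2 -2.07, -3.97 to -0.39), patrolling blood monocytes that made up 105 and 172 nuclei. At D0 the macrophage-like level stood above that of these monocytes, and at D5 the intervals of the 2 classes overlapped. Without that subcluster the macrophage-like level at D0 was 43.1 CPM, below the 71.2 CPM of the monocytes and inside their interval (34.2 to 131). In neutrophil-like nuclei, of which D0 held 5 and D5 92, C3 stood at 91.3 CPM (54.1 to 144) at D5.

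Lower C3 at D5 was not limited to one class. It fell beyond the counting interval in 6 of the 8 compared classes, from 11.9 to 3.11 CPM in cDC2-like nuclei (log2 -1.94, -2.45 to -1.42), from 8.75 to 0.896 CPM in NK cell-like nuclei (log2 -3.29, -6.44 to -1.23) and from 3.10 to 0.981 CPM in cDC1-like nuclei (log2 -1.66, -3.11 to -0.25). On the TMM scale the cDC1-like interval included 0 (-1.34, -2.79 to 0.07), which left 5. Free RNA carried C3 at 44.9 CPM at D0 and 6.39 CPM at D5, so it was lower at D5 as well. The macrophage-like level stood at 5.95 times the free level at D0 and 3.42 times at D5. Scaled to the hepatocyte genes of the class, free RNA came to 75.1 CPM of C3 at D0 and 11.7 CPM at D5, or 28.1% and 53.5% of the measured level. Those hepatocyte genes stood at 167% and 183% of their level in free RNA. The scaled values thus lie above free RNA itself and give no share of free RNA in the class. The dendritic and NK cell-like levels were under the free level on both days. What part free RNA had in the C3 of those classes was not tested.

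Cfp (ENSMUSG00000001128, chromosome X), the properdin gene, was detected in all compared classes, with its highest level among them in cDC2-like nuclei, near that of free RNA. cDC2-like nuclei carried it at 163 CPM (152 to 175) at D0 and 203 CPM (198 to 209) at D5. Macrophage-like nuclei held 121 CPM (104 to 141) and 115 CPM (104 to 128). The 2 intervals did not overlap on either day, and pDC-like nuclei followed at 72.2 and 99.3 CPM, with an interval at D5 (89.8 to 110) that overlapped the macrophage-like one. The macrophage-like level was 1.42-fold that of the other named classes together at D0, and lower than theirs at D5 (115 against 144 CPM). An unnamed cluster led by Cyp7b1, with 199 nuclei at D0 and 1437 at D5 and 3 of 6 markers of preDC (dendritic cell precursors), held 231 CPM (183 to 287) at D0 and 300 CPM (283 to 317) at D5, or 1.28 and 1.63 times the free level. Free RNA was rich in Cfp, with 180 CPM at D0 and 184 CPM at D5, so that cDC2-like nuclei stood at 0.909 and 1.10 times the free level and macrophage-like nuclei at 0.675 and 0.625 times. Whether cDC2-like nuclei lay above or below free RNA turned with the barcodes used, since those of 51 to 200 UMIs held 140 CPM at D0 and 218 CPM at D5. The other compared classes stood at 0.173 to 0.539 times the free level. In pDC-like nuclei, where hepatocyte genes were low, the scaled free level was below the measured one, at 58.4 CPM at D0 and 80.8 CPM at D5.

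Measured Cfp was higher at D5 in most classes. It rose by a log2 ratio of 0.32 (0.21 to 0.43) in cDC2-like nuclei, 0.35 in cDC1-like, 0.46 in pDC-like, 0.74 in NK cell-like and 1.12 (0.50 to 1.81) in Ccr7+ DC-like nuclei, where it went from 33.9 to 73.6 CPM. Apart from cDC2-like nuclei these levels were below that of free RNA. Free Cfp was higher at D5 as well in barcodes of 1 to 9 UMIs (147 and 191 CPM) and of 51 to 200 UMIs (140 and 218 CPM). In those of 10 to 50 UMIs it was at 180 CPM, from 60 UMIs, and 184 CPM. The part of free RNA in these ratios was not tested. Free RNA scaled to the hepatocyte genes of the cDC2-like class came to 247 CPM of Cfp at D0 and 204 CPM at D5, no less than was measured, so no ratio could be formed after subtracting it. Those hepatocyte genes stood at 137% and 111% of their level in free RNA, so the scaled values lie above free RNA itself. The part of free RNA in the Cfp of this class was not tested. In macrophage-like nuclei the ratio was -0.07 (-0.34 to 0.19). The share of cDC2-like nuclei with a Cfp UMI was 24.6% at D0 and 37.9% at D5, and thinning to equal depth brought these to 14.2% and 16.8%. NK cell-like nuclei, a lymphoid class, had a Cfp UMI in 4.10% and 9.47% (2.59% and 5.54% thinned).

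Of the 7 genes, none was 2-fold or more higher at D5 in cDC2-like nuclei, where 1.12% of 11485 genes were, and 2 were lower, C3 and C3ar1, where 6.72% were. On the TMM scale the split of genes past 2-fold in this class went from 129 higher and 772 lower to 359 higher and 394 lower.

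The anaphylatoxin receptors had their highest levels in myeloid classes. C3ar1 (ENSMUSG00000040552, chromosome 6) was at 55.8 CPM (44.3 to 69.3) at D0 and 49.3 CPM (42.0 to 57.5) at D5 in macrophage-like nuclei, from 81 and 160 UMIs. The log2 ratio was -0.18 (-0.57 to 0.23), and its sign turned to 0.12 on the TMM scale. It was below 0 beyond the interval without the Edn1 subcluster (-0.95), with finer clusters (-1.17), with classes set from each nucleus alone (-0.88) and with doublets kept (-0.45, -0.81 to -0.07). Its level there was 19.6-fold (D0) and 46.8-fold (D5) that of the other named classes, and C5ar1 below had 20.9-fold and 18.4-fold. In cDC2-like nuclei C3ar1 fell from 6.08 to 1.17 CPM (log2 -2.37, -3.17 to -1.58). T cell-like nuclei held no C3ar1 UMI on either day, and free RNA held none at D0, with an interval up to 11.04 CPM, and 3.36 CPM at D5. At D0 the larger sets of uncalled barcodes held C3ar1 at 2.33 CPM (1 to 9 UMIs) and 3.35 CPM (51 to 200 UMIs).

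C5ar1 (ENSMUSG00000049130, chromosome 7) was at 51.7 CPM (40.6 to 64.7) at D0 and 75.2 CPM (66.03 to 85.2) at D5 in macrophage-like nuclei, and it rose by 0.54 (0.16 to 0.93). Without the Edn1 subcluster the ratio was 0.06 (-0.36 to 0.50), and the call did not hold. Nonclassical monocyte-like nuclei held a like level, 71.2 CPM (34.2 to 131) at D0 and 61.0 CPM (36.1 to 96.3) at D5. The intervals of the 2 classes overlapped on both days. The ratio in the monocytes was -0.22 (-1.42 to 1.05). Neutrophil-like nuclei at D5 stood above both with 244 CPM (180 to 323), and 32.6% of the 92 nuclei had a UMI. cDC2-like nuclei held C5ar1 at 2.51 and 3.07 CPM, and free RNA at 0 at D0, with an interval up to 11.04 CPM, and 5.38 CPM at D5. The larger sets of uncalled barcodes at D0 held C5ar1 at 4.65 CPM (1 to 9 UMIs) and 3.23 CPM (51 to 200 UMIs), above the cDC2-like level. A UMI of C5ar1 was found in 7.88% and 14.7% of macrophage-like nuclei, or 5.81% and 6.47% after thinning.

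When the macrophage-like nuclei were clustered again, the 7 genes separated into different subclusters. These subclusters are called here by one of their leading genes and given no cell type name, and the genes that define them are no result. A subcluster led by Pdgfc, with 124 nuclei at D0 and 38 at D5, held the highest C1q of those with at least 30 nuclei, with C1qa at 1389 and 2216 CPM, C1qb at 1333 and 2225 CPM and C1qc at 808 and 929 CPM. C3ar1 was also highest there, at 234 and 196 CPM. The subcluster led by Gpnmb, with Spp1 and Chil3 among its leading genes, went from 30 nuclei at D0 to 369 at D5 and held C1qa at 787 CPM on both days and C5ar1 at 134 and 144 CPM. The subcluster led by Oas3 (102 and 398 nuclei) held less C1qa, at 259 and 215 CPM. At D5, 10 nuclei led by the Kupffer cell genes Marco, Clec4f and Cd5l held C1qa at 5891 CPM, C1qb at 4961 CPM and C1qc at 4083 CPM.

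C3 at D0 lay mostly in another subcluster, one led by Edn1, Inhba and Ly6i, with 326 nuclei at D0 and 9 at D5. It made up 45.1% of the macrophage-like nuclei at D0 and held 354 of the 388 C3 UMIs of the class, or 91.2% (88.0% to 93.9%), at 534 CPM (480 to 592). Its share of the other genes was 17.3% for C1qa, 22.3% for C1qb, 19.0% for C1qc, 58.0% for Cfp, 6.17% for C3ar1 and 24.0% for C5ar1. The 9 nuclei at D5 held no C3 UMI, with an interval up to 138 CPM, and 54 of the 71 C3 UMIs of the class at D5 lay in the Gpnmb subcluster. Cfb, the alternative pathway protease that forms the convertase with C3b, was at 188 CPM in this subcluster at D0 and at 0 to 20.9 CPM in the others with at least 30 nuclei. In its 9 nuclei at D5 Cfb was at 224 CPM (82.3 to 488), from 6 UMIs.

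The markers of that subcluster were less those of macrophages than in its neighbors. Its macrophage marker list summed to 1464 CPM at D0, where the other subclusters with at least 30 nuclei held 1961 to 9240 CPM, its classical monocyte list to 2238 CPM, and its endothelial list to 291 CPM against 26.1 to 89.1 CPM. Fcgr1 was at 18.1 CPM there. Its nuclei held a median of 1868 UMIs and a mitochondrial share of 0.241%. With finer clusters, 277 of its 326 nuclei fell into clusters that carry no class name and 45 stayed macrophage-like. The part of these markers in the C3 result was not tested.

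**Figure D2:**
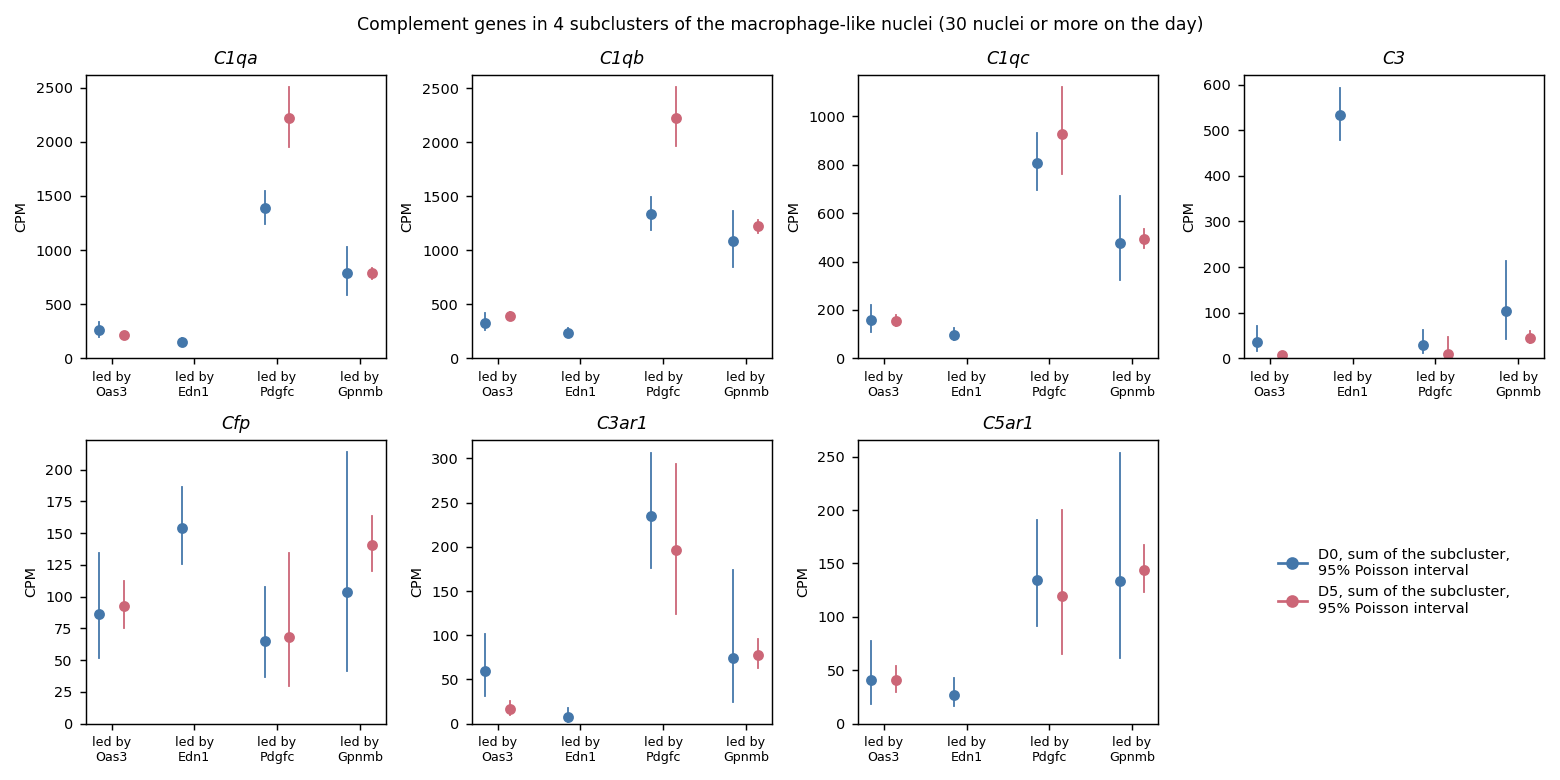
RNA level of the 7 genes (CPM, linear axis from 0) in 4 subclusters of the macrophage-like nuclei, named by a leading gene, in blue for D0 and red for D5 where the subcluster had at least 30 nuclei on that day, with 95% Poisson counting intervals. C1qa, C1qb, C1qc and C3ar1 peak in the Pdgfc subcluster, and C3 at D0 peaks at 534 CPM in the Edn1 subcluster.

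Without the Edn1 subcluster, which left 397 nuclei at D0 and 1103 at D5, the ratios of C1q, C3, Cfp and C5ar1 moved toward or past 0 and that of C3ar1 moved away from it. This alternative was chosen after the data were seen. C1qa then went from 612 to 544 CPM (log2 -0.17, -0.32 to -0.02) and C1qc from 351 to 338 CPM (log2 -0.06, -0.25 to 0.14), while C1qb still rose, from 692 to 811 CPM (log2 0.23, 0.09 to 0.36). C3 still fell, from 43.1 to 22.1 CPM, with a log2 ratio of -0.97 (-1.58 to -0.33) in place of -3.61. Free RNA held C3 at 44.9 CPM at D0 and 6.39 CPM at D5, so the level left at D0 was not above it. The part of free RNA in this ratio was not tested. C3ar1 fell from 96.3 to 49.7 CPM, by 0.95 (-1.36 to -0.54), and C5ar1 was at 72.3 and 75.2 CPM. Cfp was at 93.8 and 115 CPM (log2 0.29, -0.07 to 0.67). Within the 4 subclusters with at least 30 nuclei on both days, C3 fell in 2, and C1qa, C1qb and C1qc each rose in 1. C3 fell in the Oas3 nuclei from 36.3 to 7.19 CPM (log2 -2.34, -3.95 to -0.73), levels near that of free RNA on each day. In the Gpnmb nuclei C3 was at 104 and 45.3 CPM (log2 -1.20, -2.34 to 0.18). C1qa rose in the Pdgfc nuclei (log2 0.67, 0.43 to 0.91), with a ratio of -0.27 in the Oas3 nuclei, and C3ar1 fell in the Oas3 nuclei from 59.1 to 16.2 CPM (log2 -1.87, -2.98 to -0.72).

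The cDC2-like class split likewise. Cfp rose beyond its interval in 3 of its 4 large subclusters, from 165 to 188 CPM in the one led by Il1a and Tnfsf9 (log2 0.19, 0.03 to 0.36), from 135 to 193 CPM in the one led by Trem1 (log2 0.52, 0.18 to 0.88) and from 159 to 235 CPM in the one led by Adam23 (log2 0.56, 0.30 to 0.83). In the one led by the heat shock genes Hspa1a and Hspa1b it was at 176 and 203 CPM (log2 0.20, -0.02 to 0.43). Levels of C3 in these subclusters were 5.39 to 16.2 CPM at D0 and 1.13 to 4.97 CPM at D5.

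The rest of the system was taken from a list of 44 other complement components, regulators and receptors. All 44 were in the files, and 13 had at least 50 UMIs in a class. In macrophage-like nuclei 9 were counted, of which 1 was 2-fold or more lower at D5, Cfb, and none higher, beside 5.21% and 0.910% of all genes, with a median log2 ratio of 0.15 where the median of all 8021 genes was -0.20. Cfb went from 92.3 to 8.32 CPM, so it fell by 3.47 on the log2 scale (-4.13 to -2.87). Most Cfb lay in the Edn1 subcluster, and without it Cfb was at 11.4 and 6.52 CPM (log2 -0.81, -1.99 to 0.50), so the call did not hold. Cd93, once described as a C1q receptor, rose there from 36.5 to 55.8 CPM (log2 0.61, 0.16 to 1.08), and Itgax, the CD11c chain of complement receptor 4 that the sort selected on, fell from 356 to 270 CPM (log2 -0.40, -0.56 to -0.24). Neither of these calls held without the Edn1 subcluster, with log2 ratios of 0.25 (-0.26 to 0.81) for Cd93 and -0.11 (-0.32 to 0.10) for Itgax. Free RNA held Itgax at 323 CPM at D0 and 226 CPM at D5, so it was lower at D5 as well. The part of free RNA in the Itgax ratio was not tested.

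In cDC2-like nuclei 10 of the list were counted and none passed 2-fold in either direction, beside 6.72% of all genes lower and 1.12% higher, with a median log2 ratio of -0.20 beside -0.16 for all genes. Elsewhere Clu, a fluid-phase inhibitor of the terminal complex, fell from 202 to 72.3 CPM in Ccr7+ DC-like nuclei (log2 -1.48, -1.80 to -1.16). C1qbp and Calr, which encode proteins that bind C1q among other functions, were highest in cDC1-like nuclei and rose there from 65.0 to 102 CPM (log2 0.65, 0.44 to 0.86) and from 414 to 569 CPM (log2 0.46, 0.37 to 0.54). C1qbp also rose in macrophage-like (log2 0.68, 0.28 to 1.10) and cDC2-like nuclei (log2 0.48, 0.28 to 0.69), and Calr by 0.15 (0.01 to 0.29) and 0.19 (0.12 to 0.27). Free RNA held C1qbp at 53.9 CPM at D0 and 84.4 CPM at D5, so it was higher at D5 as well. The macrophage-like and cDC2-like levels of C1qbp were below it on both days. Calr was at 440 and 427 CPM in free RNA, above the cDC1-like level at D0. The part of free RNA in the C1qbp and Calr ratios was not tested.

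The genes with the most similar pattern over the 8 classes on both days (16 points, which share 2 libraries) were named by Pearson's r of log2(CPM + 1) among 11012 genes, as a description. For C1qa they were Mertk (r = 0.946), a receptor for the uptake of dead cells, and Fn1 (0.935). For C1qb they were Fn1 (0.944) and Itga9 (0.934), and for C1qc Mertk (0.959) and Fn1 (0.920). The closest gene to C3 was Ly6i (0.950). Cfp was closest to Clec10a (0.905), a lectin of cDC2 and macrophages, C3ar1 to Trem2 (0.894), a lipid receptor of macrophages, and C5ar1 to Apoe (0.966), Tlr8 (0.952) and Clec4e (0.947).

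Open chromatin within 10 kb of the start sites was counted in fragments and scaled to the fragments of the class (CPM of fragments). The windows of the 3 C1q genes overlap and shared regions, with 5 regions in each, and those of C3, Cfp, C3ar1 and C5ar1 held 3, 4, 4 and 6. Of the 24 regions 23 were called on both days, and the one over the C5ar1 start site, chr7:16259008-16259780, was a peak at D5 only, at 10.5 CPM in macrophage-like nuclei, 19.8 in nonclassical monocyte-like and 2.31 in cDC2-like. At the C1qb start site (chr4:136885818-136886741) macrophage-like nuclei held 22.0 CPM on both days, cDC2-like nuclei 5.32 and 3.74 CPM, and NK cell-like nuclei 1.21 CPM or less. The macrophage-like level was 12.2 CPM at D0 and 12.3 CPM at D5 at the C1qa start site (chr4:136898470-136899354). It was 23.4 and 18.0 CPM at that of C1qc (chr4:136892575-136893449). The C3ar1 start site (chr6:122855758-122856628) stood at 12.5 and 12.9 CPM.

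Openness at the start site was less tied to macrophage-like nuclei for Cfp. Over the other compared classes together, their log2 ratio at the Cfp start site was 0.30 at D0 and 0.79 at D5. At the C3 start site it was 2.57 and 1.32, beside 2.94 and 2.96 for C1qb and 1.70 and 1.57 for C3ar1. The C3 start site (chr17:57227700-57228639) held 13.6 CPM at D0 and 9.11 CPM at D5 in macrophage-like nuclei, 20.3 and 13.8 CPM in nonclassical monocyte-like nuclei, and 5.62 and 5.84 CPM in cDC2-like nuclei. The Cfp start site (chrX:20931345-20931776) held 9.15 and 16.1 CPM in macrophage-like, 13.4 and 12.0 CPM in cDC2-like and 17.8 and 15.8 CPM in nonclassical monocyte-like nuclei. The nonclassical monocyte-like class held 393504 fragments in all at D0 and 505927 at D5, so its values rest on few fragments per region. Macrophage-like nuclei were at least 2-fold more open than the other compared classes in 10 of 22 counted regions at D0, where 9.01% of all counted regions were, and in 9 of 22 at D5, where 5.39% were. By subcluster, the C1qb start site stood at 59.8 CPM at D0 and 69.6 CPM at D5 in the Pdgfc nuclei. The C3 start site was at 14.6 CPM (8.63 to 23.0) in the Edn1 nuclei at D0 and at 14.7 CPM (5.91 to 30.3) in the Oas3 nuclei. It was at 8.94 CPM (0.226 to 49.8) in the Gpnmb nuclei and at 3.74 CPM (0.453 to 13.5) in the Pdgfc nuclei. These intervals overlapped, so C3 openness did not set the Edn1 nuclei apart.

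Between the days, none of the 15 regions counted in macrophage-like nuclei was 2-fold or more higher at D5, where 0.884% of 30773 regions were, and none was lower, where 1.10% were. Summed over the 10 kb windows, the log2 ratio of D5 over D0 was -0.01 (-0.36 to 0.33) for C1qa, -0.15 (-0.47 to 0.16) for C1qb, -0.07 (-0.35 to 0.22) for C1qc, -0.03 (-0.30 to 0.25) for C3ar1 and 0.07 (-0.18 to 0.32) for C5ar1. For C3, whose RNA fell by 3.61, it was -0.26 (-0.70 to 0.19). For Cfp, whose RNA ratio in this class was -0.07, openness rose by 0.60 (0.23 to 0.97). The RNA ratio of Cfp was 0.29 (-0.07 to 0.67) without the Edn1 subcluster and 0.23 (-0.03 to 0.50) on the TMM scale. Openness was not recomputed without that subcluster. In cDC2-like nuclei the C1qc start site fell from 8.18 to 4.75 CPM (log2 -0.78, -1.19 to -0.37) and that of C3ar1 from 8.38 to 6.05 CPM (log2 -0.47, -0.85 to -0.08). The TMM factors of this class, with a log2 ratio of -0.12 for open chromatin, would bring the C3ar1 interval to include 0 but not that of C1qc. The Cfp start site stood at 13.4 and 12.0 CPM.

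**Figure D3:**
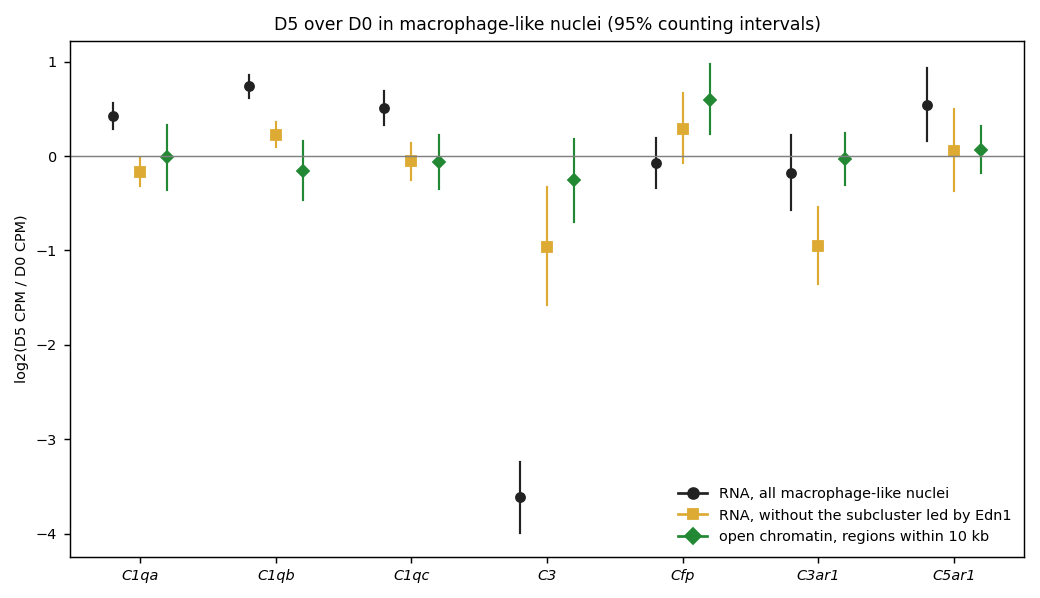
Log2 ratio of D5 over D0 in macrophage-like nuclei for each of the 7 genes, for RNA in the whole class, RNA without the Edn1 subcluster, and open chromatin summed within 10 kb, with 95% counting intervals and a line at 0. C3 lies at -3.61 for RNA in the whole class, at -0.97 without that subcluster and at -0.26 for open chromatin, and C1qa lies at 0.42, -0.17 and -0.01.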

How the data were processed

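The authors sequenced 1 joint RNA and open chromatin library per day (10x Multiome) and deposited counts, aligned to mm10 per the labels. The submitters' processing notes name Cell Ranger ARC 2.0.2, and the RNA table headers name another Cell Ranger version. The deposited RNA tables hold counts of UMIs per gene and called barcode, and the deposited joint tables hold those of all barcodes with counts of cut sites per peak, which were divided by 2 to give fragments. The barcodes of the joint D5 table were not used here, and the layers of both days were joined by identical gene counts (16260 of 16260 and 27873 of 27873 barcodes). Called barcodes below 1000 UMIs or above 10% of mitochondrial UMIs were dropped (14278 and 26633 were left), and a Scrublet score of 0.2 or more removed 23.1% and 25.5% of them as doublets. Clustering with scanpy 1.11.5 gave 21 clusters, of which 6 carry no name. A cluster was named where at least 3 markers of a list had 10 or more UMIs and were at least 2-fold over the mean of the other clusters, the next list had fewer than 2 for every 3 of them, and no other list had more among the 10 leading genes, and 8 classes with at least 100 nuclei on each day were compared.

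Genes were summed per class and day, which were 1 library each, so no test across genes was run and edgeR 4.0.16 (TMM) and DESeq2 1.42.0 gave scaling factors only. Levels carry exact Poisson intervals, shares exact Clopper-Pearson intervals and ratios exact conditional binomial intervals (scipy 1.17.1). They cover counting error alone. Ratios were counted for genes or regions with at least 50 UMIs or fragments in the class. Free RNA was read from 27187 uncalled barcodes at D0 and 205245 at D5. Named genes were the 7 members, the list genes past the count minimum in their highest class, and the 5 most similar genes to each member. The members and all lists were chosen with earlier results of these data known. Promoter sequences are from RefSeq (GRCm38.p6). Some genes and 1 subcluster of the macrophage-like nuclei are not reported here.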

Additional observations from a re-analysis of the deposited data

Results flagged for a closer look

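The ratios of D5 over D0 of C1qa and C1qc pointed in opposite directions in different classes, beyond the counting interval of each. The difference between classes itself was not tested, since each day had 1 library. For C1qa the log2 ratio was 0.42 in macrophage-like and 0.83 in pDC-like nuclei, and -0.52 in cDC2-like and -1.03 in NK cell-like nuclei. For C1qc it was 0.51 in macrophage-like and 0.77 in pDC-like nuclei, and -0.50 in cDC2-like nuclei. Outside the macrophage-like class these levels lay below those of free RNA, in which C1qa was at 50.9 CPM at D0 and 56.8 CPM at D5. The summed level of hepatocyte genes, as a percent of that in free RNA, was 167 at D0 and 183 at D5 in macrophage-like nuclei, the highest of the compared classes, 137 and 111 in cDC2-like nuclei, 32.5 and 43.9 in pDC-like nuclei and 105 and 150 in NK cell-like nuclei. The part of free RNA in these ratios was not tested. In macrophage-like nuclei the direction of both genes turned without the Edn1 subcluster (-0.17 for C1qa, -0.057 for C1qc) and with finer clusters (-0.39 and -0.25). The ratios in cDC2-like nuclei were not recomputed with finer clusters. On the TMM scale the cDC2-like ratios were -0.21 and -0.20 with intervals that included 0, as did that of C1qa in NK cell-like nuclei (-0.84, -1.81 to 0.08).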

How the results depend on the processing

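Values are log2 ratios of D5 over D0 in macrophage-like nuclei, and for Cfp in cDC2-like nuclei. TMM scaling gave 0.73 for C1qa, 1.04 for C1qb, 0.81 for C1qc and 0.62 for Cfp, and DESeq2's size factors 0.71, 1.02, 0.79 and 0.62. A minimum of 2000 UMIs per nucleus gave 0.0055, 0.27 and 0.036 for the C1q genes and -2.78 for C3, and no removal of doublets 0.21, 0.47 and 0.30. Finer clusters (Leiden resolution 2.0) turned C1qa to -0.39 and C1qc to -0.25 and gave 0.042 for C1qb, -0.98 for C3 and -1.17 for C3ar1. Classes set from each nucleus alone gave 0.13, 0.40 and 0.19 for the C1q genes, -2.26 for C3 and -0.88 for C3ar1. Subtracting free RNA gave 1.16 for C1qb and -4.24 for C3, and left no Cfp on either day, so it has no value there. Hepatocyte genes were higher in both classes than in free RNA, so the scaled amount subtracted was above the free level itself. Barcodes of 51 to 200 UMIs as free RNA moved Cfp from 184 to 218 CPM at D5 and C1qb from 120 to 75.1 CPM at D0. Leaving out the Edn1 subcluster, chosen after seeing the data, gave -0.17 for C1qa, 0.23 for C1qb, -0.057 for C1qc, -0.97 for C3, -0.95 for C3ar1 and 0.057 for C5ar1. C3 was lower at D5 under every one of these. C1qb was above 0, but at Leiden resolution 2.0 its interval was -0.09 to 0.18. Thinning changed the difference in the share of nuclei with a UMI, in percentage points, from 8.03 to 2.84 for C1qa, from 11.5 to 3.34 for C1qc, from -19.0 to -14.8 for C3, from 13.3 to 2.56 for Cfp and from 3.07 to -0.86 for C3ar1. The count of genes past 2-fold without a count minimum was 2235 higher and 4255 lower in macrophage-like and 3136 and 4999 in cDC2-like nuclei, and with TMM 249 and 194, and 359 and 394. Beyond the alternatives' own construction, the cause was not tested. Ratios of open chromatin moved by less than their counting interval in 28 of 28 recomputed values. These were taken in the class with the highest RNA of each gene, cDC2-like for Cfp and nonclassical monocyte-like for C5ar1. The rise in Cfp openness in macrophage-like nuclei was not among them. C5ar1 was recomputed in nonclassical monocyte-like nuclei. No nonclassical monocyte-like class formed without removal of doublets or at 2000 UMIs, so C5ar1 has no value there. In macrophage-like nuclei its ratio was recomputed only with TMM factors and without the Edn1 subcluster. No paired analysis was possible because each group held 1 library. Classes of few nuclei limit what depth can show, as with the 5 neutrophil-like nuclei at D0.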
